A study of Mus musculus with 26 samples.

Results

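The 12 mice with a lesion of the suprachiasmatic nuclei (SCNx) were ordered by the state of the clock in their own choroid plexus, and each gene was then compared with that order. The state of a library was defined as the log2 CPM (counts scaled to the library size) of *Arntl* minus the mean log2 CPM of *Nr1d1*, *Dbp*, *Per3* and *Ciart*, so that a high value stands for much *Arntl* and little of its targets. The members were all 12 SCNx libraries of the 26 libraries of the series. The 6 highest and 6 lowest mice were selected on the measured values of these 5 genes, which are therefore only described, and all other genes were examined for whether they follow the state. The 12 sham-operated mice (Ctrl) were used for comparison.

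Both groups were adult male C57Bl6J mice that were housed individually. They received a bilateral electrolytic lesion or a sham operation, were kept under a light-dark cycle and then in constant darkness, and the choroid plexus of the 4th ventricle was taken with pincers from 1 mouse every 4 h, from CT0 to CT44. The study checked the lesions by locomotor activity and histology. The labels give no transgene for them, and 2 *Bmal1* knockout mice of the series were not used here. Since each time point is 1 mouse, the state, the time and the individual mouse cannot be fully told apart in SCNx, and all p-values rest on the spread between mice.

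In the mammalian clock, BMAL1 (the product of *Arntl*) and CLOCK or NPAS2 bind E-boxes and switch on *Per*, *Cry*, *Nr1d1*, *Nr1d2* and the genes of the PAR bZIP factors *Dbp*, *Tef* and *Hlf*. PER and CRY proteins then block BMAL1 and CLOCK, while the REV-ERB proteins encoded by *Nr1d1* and *Nr1d2* repress *Arntl*, *Npas2* and *Nfil3*. In a running clock the positive arm and the E-box targets are therefore in antiphase, and most tissues, the choroid plexus included, hold such a clock of their own that the SCN keeps in step.

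The control sequences that connect these arms are shown for some of the genes named below. The 250 bases upstream of RefSeq transcription starts (build GRCm38.p6, which is not the build of the authors' alignment) were searched on both strands for the E-box CACGTG and for TAGGTCA, the sequence bound by ROR and REV-ERB proteins. CACGTG stood in 6.02% and TAGGTCA in 2.23% of all 32851 promoters. Of the 19 clock genes considered, 16 had an entry, and 5 of these held CACGTG and 1 held TAGGTCA. Capitals mark the matched letters, read 5′ to 3′ on the strand of the gene. *Ciart* held 3 E-boxes within chr3:95882229-95882384 on the minus strand, and *Tef* held 1 in each of its promoters, within chr15:81802506-81802595 on the plus strand and chr15:81811236-81811325 on the plus strand. *Bhlhe41* held 1 within chr6:145865524-145865613 on the minus strand. *Tspan4* held 1 within chr7:141476289-141476378 on the plus strand, in its second promoter and not in its first. TAGGTCA was found in *Leo1* within chr9:75441421-75441510 on the plus strand and, as its reverse complement TGACCTA, in *Nfil3* within chr13:52981040-52981091 on the minus strand. Matches to CACGTG that are not shown stood in *Per1*, *Cry1*, *Met*, *Sh2b3* and *Magt1*, and in 1 promoter each of *Hsph1* and *Sgk1*. Of these genes, *Hsph1* and *Magt1* rose with the state in SCNx, against the direction of the E-box targets. The clock gene *Cry1* did not fall with it either (slope 0.02, unadjusted p = 0.63 in the edgeR test described below). *Arntl*, *Hlf*, *Nr1d2*, *Npas2* and *Clock*, among others, held neither sequence. A match describes letters in a window and is not evidence of binding.
Ciart: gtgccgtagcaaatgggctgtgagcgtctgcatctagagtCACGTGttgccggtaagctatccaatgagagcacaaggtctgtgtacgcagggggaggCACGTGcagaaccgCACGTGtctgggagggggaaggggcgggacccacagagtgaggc
Tef, first promoter: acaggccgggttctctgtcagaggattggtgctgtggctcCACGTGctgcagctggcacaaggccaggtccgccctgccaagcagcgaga
Tef, second promoter: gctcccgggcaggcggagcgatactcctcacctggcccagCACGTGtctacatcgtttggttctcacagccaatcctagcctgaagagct
Bhlhe41: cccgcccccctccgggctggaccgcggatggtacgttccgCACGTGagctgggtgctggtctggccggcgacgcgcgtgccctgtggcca
Tspan4: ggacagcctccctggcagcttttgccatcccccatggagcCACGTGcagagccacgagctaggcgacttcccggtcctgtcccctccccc
Leo1: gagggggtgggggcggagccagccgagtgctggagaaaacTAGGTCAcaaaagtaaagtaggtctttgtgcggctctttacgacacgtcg
Nfil3: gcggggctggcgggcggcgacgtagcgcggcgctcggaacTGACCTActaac

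The libraries of SCNx held 41807043 to 49527655 estimated counts and those of Ctrl 38751201 to 47335258. Markers of the choroid plexus epithelium took 99867 to 168178 CPM in SCNx, so the labelled tissue was present in every library. Some libraries carried RNA of other tissues. The summed hepatocyte markers reached 11804 CPM in SCNx CT0, against at most 14.03 CPM in the other SCNx libraries. The neuron and cerebellum markers reached 310 CPM in SCNx CT32, the library with the lowest epithelial sum, against at most 64.6 CPM elsewhere in SCNx. Haemoglobin and other blood genes reached 6615 CPM in SCNx CT44. In Ctrl the hepatocyte sum was highest in CT16 with 2261 CPM and the neuron sum in CT4. In bulk tissue, fewer cells of a type and less RNA per cell cannot be told apart.

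The clock state of SCNx mice spanned a 25.9-fold range, and a 5.81-fold range without the mouse of CT8. From the lowest, the states were -3.12 in CT8, -0.96 in CT4, -0.45 in CT0, -0.09 in CT24, -0.04 in CT36 and 0.30 in CT12, which made up the lower 6. They were 0.43 in CT28, 0.49 in CT32, 0.70 in CT44, 1.39 in CT40, 1.52 in CT16 and 1.58 in CT20, the upper 6. SCNx CT8 thus stood far below all others, and the border between the 6 lowest and the 6 highest ran between 2 close libraries, CT12 at 0.30 and CT28 at 0.43. The SD was 1.29 in SCNx and 3.08 in Ctrl. In Ctrl a 24 h cosine had an R2 of 0.996 for the state, with its peak at CT22.4 and an amplitude of 4.17. In SCNx the R2 was 0.474, with its peak at CT18.0 and an amplitude of 1.20, so the state shared variance with circadian time. Whether mice without a rhythm would give such an R2 was not tested. Without SCNx CT8 these values were 0.549, CT16.8 and 0.82.

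**Figure D1:**
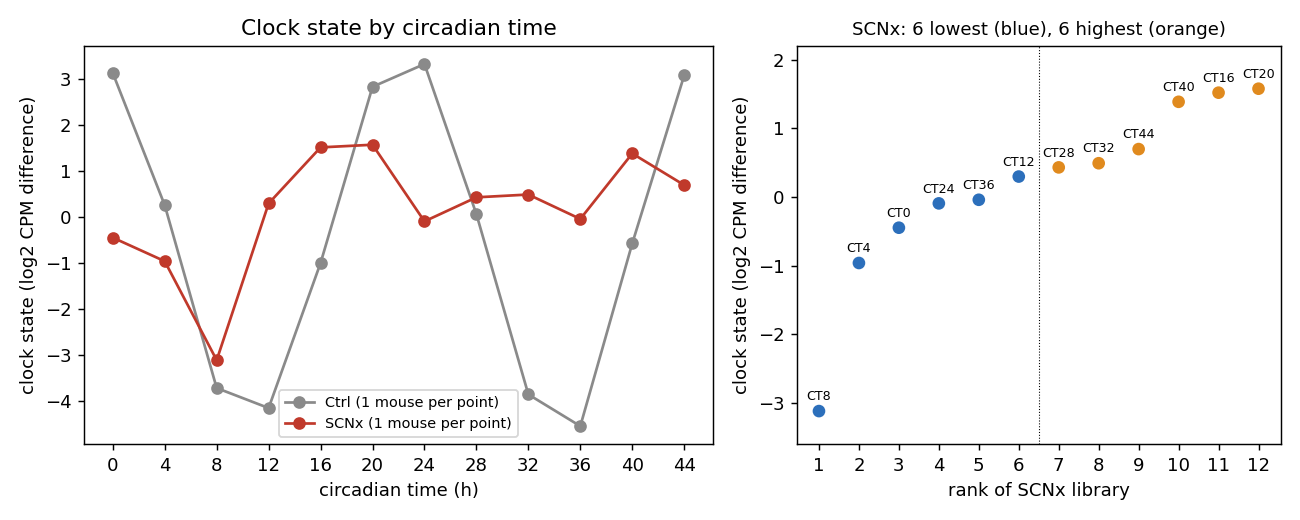
Clock state (log2 CPM difference) of each library against circadian time in Ctrl (grey) and SCNx (red), 1 mouse per point, and the 12 SCNx libraries in rank order with their circadian times. Ctrl runs from -4.55 to 3.34 and returns to similar values on the second day, whereas SCNx stays between -0.96 and 1.58 apart from CT8 at -3.12.

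The 5 genes behind the state varied unequally between the lesioned mice. *Arntl* was lowest in SCNx CT8 with 3.31 CPM and highest in CT40 with 21.6 CPM, against 2.02 to 40.0 CPM in Ctrl. *Ciart*, a repressor of BMAL1 and CLOCK, was highest in CT8 with 5.29 CPM and lowest in CT16 with 0.37 CPM. *Dbp* ran from 16.5 to 89.5 CPM, again with the highest value in CT8. *Nr1d1* and *Per3* also peaked in CT8, but spanned only 2.79-fold and 2.71-fold in SCNx, where the same genes spanned 36.9-fold and 6.15-fold in Ctrl. The mean log2 levels of the upper 6 libraries exceeded those of the lower 6 by 1.05 for *Arntl*. The same differences were -1.20 for *Ciart*, -0.90 for *Dbp*, -0.37 for *Per3* and -0.29 for *Nr1d1*. *Arntl* enters the state in full and the other genes only as their mean. The difference in state between the upper 6 and the lower 6 thus came mostly from *Arntl*, with *Ciart* and *Dbp* next.

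Other clock genes gave nearly the same order. A state built from *Npas2*, *Clock* and *Nfil3* minus *Nr1d2*, *Tef*, *Per2*, *Hlf* and *Bhlhe41*, none of which entered the first state, correlated with it over the 12 SCNx mice. Pearson's r was 0.96 (permutation p = 2e-05) and Spearman's rho was 0.85 (permutation p = 0.00083, both two-sided). Without SCNx CT8 and CT4, the pair of libraries farthest from the median state, r was 0.90. Of the 12 libraries, 10 fell into the same group of 6 by either state.

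Only *Tef* passed the test of a slope on the state in SCNx. Slopes are changes of log2 CPM per unit of the state, tested with edgeR's quasi-likelihood F test and Benjamini-Hochberg adjustment over 14209 genes. At an adjusted p under 0.05, 0 genes (0%) were higher and 1 gene (0.00704%) was lower with the state. At an unadjusted p under 0.05, 245 genes (1.72%) were higher and 530 (3.73%) were lower, together 5.45% of the genes tested, and 11 genes (0.0774%) had an adjusted p under 0.25. The share at the unadjusted threshold is near the one that such a threshold gives when nothing follows the state, so a single gene at that level is weak evidence. In Ctrl, 412 of 13768 genes (2.99%) were higher and 439 (3.19%) were lower at an adjusted p under 0.05, together 851 (6.18%). In Ctrl the state and circadian time are nearly the same variable, so these are genes of one circadian phase or its opposite.

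*Tef* (ENSMUSG00000022389), a PAR bZIP transcription factor and E-box target with CACGTG in both promoters above, fell with the state. In the order of rising state, its level was 168 CPM in CT8, 115 in CT4, 109 in CT0, 104.4 in CT24, 108 in CT36, 92.8 in CT12, 89.0 in CT28, 98.6 in CT32, 94.9 in CT44, 73.3 in CT40, 75.7 in CT16 and 79.8 in CT20. The level was thus highest at the 3 lowest states and lowest at the 3 highest, with rises at single steps between, and the ranges of the lower 6 (92.8 to 168 CPM) and the upper 6 (73.3 to 98.6 CPM) overlapped. The slope was -0.24 ± 0.017 (SE, adjusted p = 0.000105) in SCNx and -0.24 ± 0.030 (adjusted p = 0.00144) in Ctrl. Their difference was -0.01 with a 95% interval from -0.12 to 0.11. Pearson's r with the state was -0.98 over the 12 mice, -0.95 without CT8 and -0.94 without CT8 and CT4. By permutation of these correlations no gene passed, with an adjusted p of 0.142 for *Tef* by Pearson and 0.696 by Spearman. Without CT8 the slope was -0.25 and its adjusted p in edgeR was 0.105, so the call rests on that mouse while the size of the slope does not. With a 24 h cosine and sine in the model the slope was again -0.24 (adjusted p = 0.0345). That model gave 23.8% of all genes an unadjusted p under 0.05, against 5.45% in the reported fit. The call was lost in 1 edgeR fit over both groups (slope -0.24, adjusted p = 0.274).

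Of 8 E-box targets outside the state, 8 had a slope below 0 in SCNx, against 7756 of 14209 genes tested, and 6 had an unadjusted p under 0.05, against 3.73% lower over all genes. The median slope was -0.17, against 0.00 (-0.00482 before rounding) over all genes tested. *Hlf* (ENSMUSG00000003949), the third PAR bZIP factor, had a slope of -0.17 ± 0.023 (adjusted p = 0.0661), and its level was 72.4 CPM in CT8, 36.7 CPM in CT20 and 41.2 to 53.0 CPM in the others. *Nr1d2* (ENSMUSG00000021775), which encodes REV-ERBβ, had a slope of -0.23 ± 0.032 (adjusted p = 0.0744), from 194 CPM in CT8 to 77.2 CPM in CT40. *Bhlhe41*, which encodes the repressor DEC2 and holds CACGTG in its promoter above, had a slope of -0.29 ± 0.056 (adjusted p = 0.282). It was at 31.9 CPM in CT8 and next highest at 21.5 CPM in CT32, one of the upper 6, so it did not follow the order throughout. *Cry2* (slope -0.12, unadjusted p = 0.00248) and *Per2* (slope -0.18, unadjusted p = 0.01) encode partners in the negative arm, and neither passed adjustment. *Per1* and *Bhlhe40* had slopes of -0.09 and -0.08 with unadjusted p of 0.0803 and 0.0863.

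A further clock list held partners and activators of *Arntl* together with the repressor genes *Nfil3* and *Cry1*, so it is not one of positive regulators alone. Of its 8 genes, 6 were expressed highly enough to be tested. Slopes were above 0 in 5 of these, against 6453 of 14209 genes tested. An unadjusted p under 0.05 was found for 3, all higher, against 1.72% of all genes. *Npas2* (ENSMUSG00000026077), which can replace CLOCK as the partner of BMAL1, had a slope of 0.23 ± 0.036 (adjusted p = 0.107). In the order of rising state its level was 6.75, 7.17, 9.65, 8.65, 9.21 and 10.1 CPM in the lower 6 and 11.002, 9.13, 11.4, 14.5, 12.8 and 12.8 CPM in the upper 6. Its r was 0.90 over the 12 mice and 0.92 without CT8, so that *Npas2* followed the order as closely among the other 11 mice. *Clock* had a slope of 0.14 ± 0.027 (adjusted p = 0.282), with 124 CPM in CT8 and 153 to 209 CPM elsewhere. *Nfil3*, which encodes a repressor at PAR bZIP sites and carries TGACCTA in the promoter above, had a slope of 0.19 ± 0.042 (adjusted p = 0.446) and ran from 8.95 CPM in CT8 to 16.7 CPM in CT16. *Cry1* and *Rora*, which encode a repressor and an activator of clock transcription, had slopes of 0.02 and -0.00 (-0.00380 before rounding) with unadjusted p of 0.63 and 0.899.

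**Figure D2:**
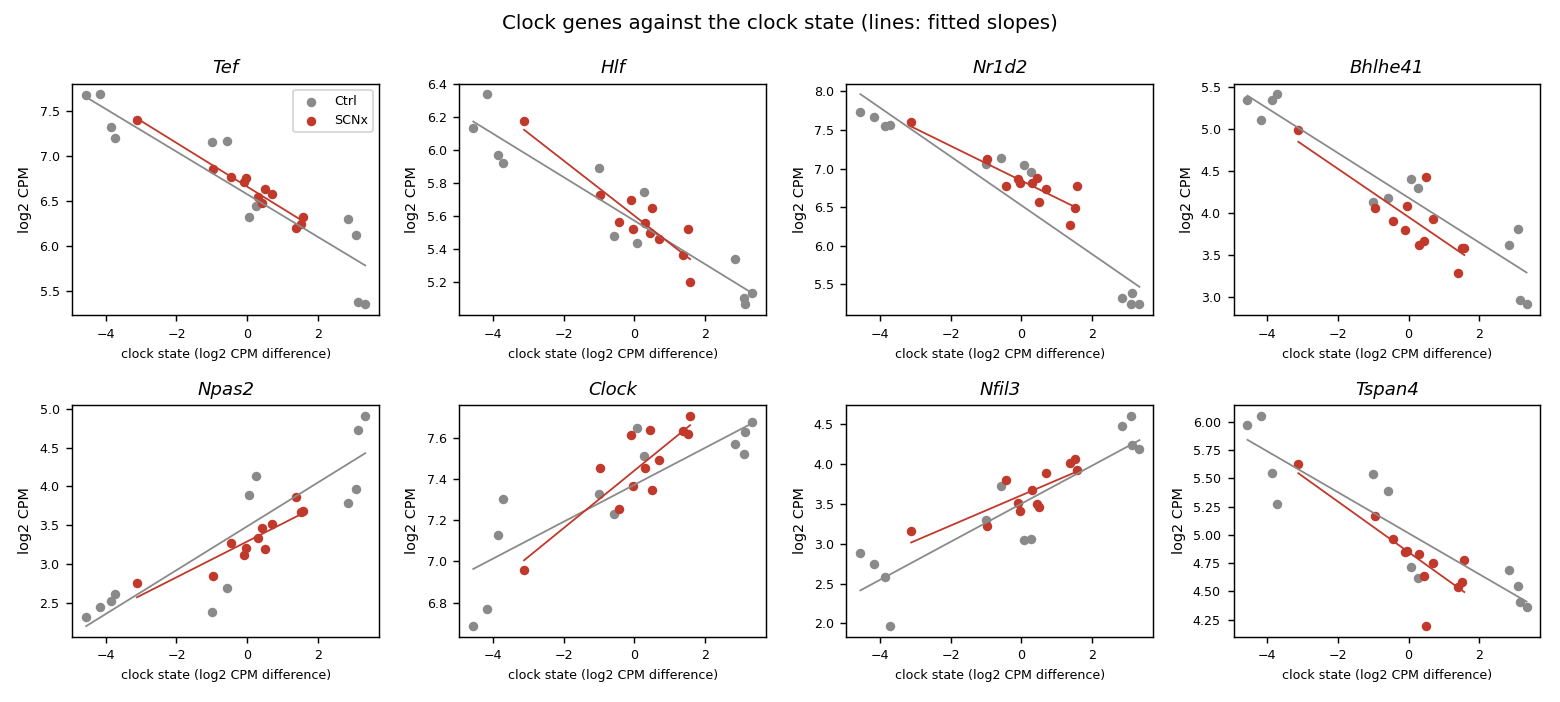
Log2 CPM of 8 clock and clock output genes against the clock state in SCNx (red) and Ctrl (grey), 1 point per mouse, with lines of the fitted slopes drawn through the group means. *Tef* has the same slope of -0.24 in both groups, and in every panel SCNx CT8 is the red point at a state of -3.12.

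For these 14 genes of both clock lists, the slopes of SCNx had the same sign as those of Ctrl in 14 of 14. Of them, 9 also had an unadjusted p under 0.05 in SCNx. Over all genes tested in both groups, these shares were 66.1% and 4.90%. With 24 h terms the counts of clock genes were 12 and 7 of 14, against 54.0% and 14.6% of all genes in that fit. Under several other settings 13 of 14 had the same sign, such as DESeq2 size factors, where *Rora* turned, or the state from *Arntl* alone. None differed between the groups in a joint model of the 24 libraries, where every adjusted p for these genes was 0.999. The intervals remained wide for some. *Nr1d2* had a slope of -0.32 in Ctrl, and the difference of SCNx minus Ctrl was 0.09 with a 95% interval from -0.04 to 0.22. For *Npas2* the difference was -0.05 (-0.21 to 0.11), for *Bhlhe41* -0.02 (-0.15 to 0.11), for *Hlf* -0.04 (-0.10 to 0.03) and for *Clock* 0.05 (-0.02 to 0.12). For *Cry1* the interval from -0.32 to 0.14 was wider than the slope in either group.

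Clock output genes were mixed, with 17 of 20 tested. At an unadjusted p under 0.05, 1 was higher and 4 were lower, against 1.72% higher and 3.73% lower over all genes. *Tspan4*, which encodes a tetraspanin, had 49.5 CPM in CT8 and 28.5 to 35.8 CPM in the rest of the lower 6, and all of the upper 6 lay below these with 18.3 to 27.5 CPM. Its slope was -0.22 ± 0.041 in SCNx (adjusted p = 0.194) and -0.18 ± 0.024 in Ctrl (adjusted p = 0.00213). *Por*, which encodes the reductase that supplies electrons to cytochrome P450 enzymes, was also split without overlap, with 83.5 to 104.4 CPM in the lower 6 and 65.01 to 78.5 CPM in the upper 6. *Leo1*, which encodes a subunit of the PAF1 transcription elongation complex, had slopes of 0.13 ± 0.031 in SCNx (adjusted p = 0.622) and 0.14 ± 0.009 in Ctrl (adjusted p = 5.66e-06). *Wee1*, a kinase that restrains entry into mitosis, had a slope of -0.11 (unadjusted p = 0.0049), which went with CT8 at 13.3 CPM against 7.78 to 10.6 CPM elsewhere. None of the 8 clock kinases and ligases had an unadjusted p under 0.05.

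Between the 6 highest and the 6 lowest libraries, 35 of 14209 genes (0.246%) did not overlap, 6 higher (0.0422%) and 29 lower (0.204%) in the upper 6. Neither *Tef* nor any other gene of the 2 clock lists was among them, and *Tspan4* and *Por* were the members from the clock output list. Of the 35 genes, 10 were also called in Ctrl, each with the same sign, which was 28.6% against 6.20% of all genes tested in both groups. Genes named here from this group were chosen after their values were seen. *Hmox1*, heme oxygenase 1, and *Gclm*, a subunit of the enzyme that starts glutathione synthesis, had log2 differences of -0.28 and -0.19 (upper minus lower 6) and fell with the state in Ctrl (adjusted p = 0.0193 and 0.0128). *P2rx6*, an ATP receptor channel subunit, had a difference of -0.27 and fell in Ctrl too (adjusted p = 0.00293). *Trf*, which encodes transferrin, had a difference of -0.73, with a slope of -0.34 in SCNx whose unadjusted p was 0.185. It was at 1945 CPM in CT0, the library with the highest hepatocyte sum, and at 265 to 477 CPM in the others. These differences between groups made from the measured state are descriptions and were not tested. Any split of 12 libraries into 6 and 6 parts some genes without overlap, and how many it would part here was not tested. The count of 35 is therefore not by itself a result about the state.

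The genes that followed the state in Ctrl leaned the same way in SCNx. Of 849 genes called in Ctrl and tested in both groups, 790 (93.1%) had a slope of the same sign in SCNx, against 66.1% of all 13691 genes tested in both. With an unadjusted p under 0.05 as well, there were 198 (23.3%), against 4.90% of all genes, and 2 genes went the opposite way at that threshold. The median size of the slope was 0.05 in Ctrl, and along the sign of Ctrl it was 0.05 in SCNx. The 839 genes outside the 2 clock lists gave 93.0% and 22.6%. Genes of 1 library are not independent, so the shares carry no p. Without SCNx CT8, 753 (88.8%) had the sign of Ctrl, against 68.0% of all genes, and 89 (10.5%) also had an unadjusted p under 0.05, against 3.32%. The median slope along the sign of Ctrl was then 0.06, so the calls were fewer and the slopes no smaller. Without CT8 and CT4 the counts were 702 (82.8%) and 84 (9.91%), against 62.1% and 4.00% of all genes. Without SCNx CT32, the library with neuronal markers, the second count was 306 (36.1%), and the share of all genes rose as well, to 7.61%. With a 24 h cosine and sine in the model of SCNx, 600 (70.7%) had the sign of Ctrl, against 54.0% of all genes. With an unadjusted p under 0.05 as well there were 189 (22.3%), against 14.6% of all genes, and 12 genes went the opposite way. Both excesses over all genes were thus smaller in that model.

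**Figure D3:**
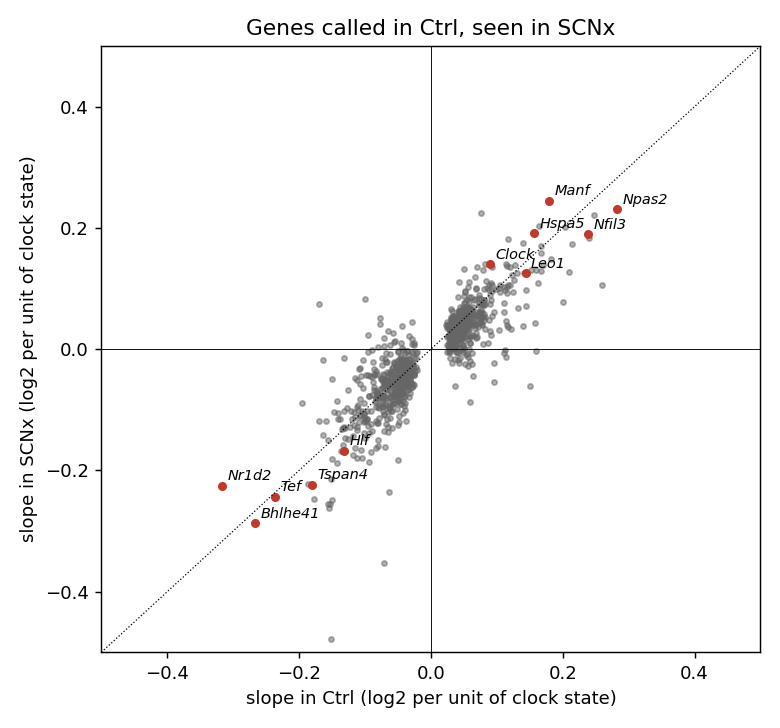
Slopes on the clock state (log2 CPM per unit of state) in SCNx against Ctrl for the 847 of 849 genes called in Ctrl that fall within 0.5 on both axes. Most points lie where both slopes have the same sign (790 of 849), and the 2 genes outside the axes are *Dct* and *Hpse*.

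*Rapgef5*, an exchange factor for small GTPases, was 1 of the 3 genes with the highest r in SCNx. It had 31.1 CPM in CT8 and 42.7 to 59.4 CPM in the others, with slopes of 0.18 ± 0.031 in SCNx (adjusted p = 0.124) and 0.24 ± 0.015 in Ctrl (adjusted p = 5.66e-06). With the 24 h terms added its slope was 0.26 (adjusted p = 0.0382), in a model where 23.8% of all genes had an unadjusted p under 0.05. *Ddx51*, an RNA helicase gene, had the next highest r, 0.88, within a narrow range of 10.6 to 13.05 CPM. The other extremes of r were *Npas2*, *Tef*, *Hlf* and *Nr1d2*, all clock genes. *Sspn*, which encodes sarcospan of the dystrophin complex and was picked after its values were seen, had a slope of -0.14 ± 0.022 (adjusted p = 0.112) and 25.3 CPM in CT8 against 15.5 to 22.5 CPM in the others. *Mt1*, a metallothionein and glucocorticoid target, had a slope of -0.19 ± 0.032 (adjusted p = 0.124), from 30.6 CPM in CT8 to 15.3 CPM in CT20.

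A list of the endoplasmic reticulum (ER) held chaperones, genes of ER-associated degradation and translocation, and the stress transcription factors *Xbp1*, *Atf4*, *Atf6* and *Ddit3*. Of its 30 genes, 29 had a slope above 0 in SCNx, against 6453 of 14209 genes tested, and *Ddit3* was the exception. An unadjusted p under 0.05 was found for 16, all higher, against 1.72% of all genes, and 0 passed adjustment. Beside chaperones, these 16 included *Xbp1* and the degradation genes *Derl2*, *Derl3*, *Sel1l* and *Syvn1*. The median slope was 0.08 in SCNx and 0.05 in Ctrl, where 12 rose at an adjusted p under 0.05. The study names this process among those with a rhythm in these Ctrl mice, so the list is not independent of their values. *Manf*, a secreted ER stress factor, ran from 91.0 CPM in CT8 to 241 CPM in CT40, with 225 CPM in CT44, 220 CPM in CT16 and 132 to 168 CPM in the others. Its slope was 0.24 ± 0.061 (unadjusted p = 0.00179). *Hspa5*, which encodes the main ER chaperone BiP, ran from 869 CPM in CT8 to 2116 CPM in CT40. In CT20, the library with the highest state, it was only at 1263 CPM. *Hyou1* and *Sdf2l1*, further parts of the ER folding machinery, had slopes of 0.19 and 0.20. In the model with 24 h terms, 21 of 30 slopes were above 0 and 0 had an unadjusted p under 0.05. Over all genes, 3388 (23.8%) had one in that model. Without CT8, 28 of 30 slopes were above 0, 7 had an unadjusted p under 0.05, and the median slope was 0.12. In that fit 4.66% of all genes had an unadjusted p under 0.05 in either direction.

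The heat shock list holds cytosolic and mitochondrial chaperones and the transcription factors *Hsf1* and *Hsf2*. In it 20 of 21 slopes were above 0, against 6453 of 14209 genes tested. An unadjusted p under 0.05 was found for 4, all higher, against 1.72% of all genes. The median slope was 0.06, and it was 0.02 without CT40 and 0.09 without CT8. The study names targets of the heat shock factor and *Hsp90aa1* as rhythmic in these Ctrl mice, so the list is not independent of their values. *Chordc1*, a partner of HSP90, had a slope of 0.17 (unadjusted p = 0.000913), and *Hsph1*, an HSP110 chaperone, one of 0.16 (unadjusted p = 0.0037). Their highest values were both in CT40, at 88.7 and 298 CPM, and their lowest in CT8, at 42.9 and 133 CPM. *Hspa4l* and *Hsp90aa1* followed with slopes of 0.12 and 0.10, and both were called in Ctrl (adjusted p = 0.0366 and 0.017). With the 24 h terms added, 9 of 21 slopes were above 0, and 2 of these had an unadjusted p under 0.05. In that model 23.8% of all genes had one in either direction.

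**Figure D4:**
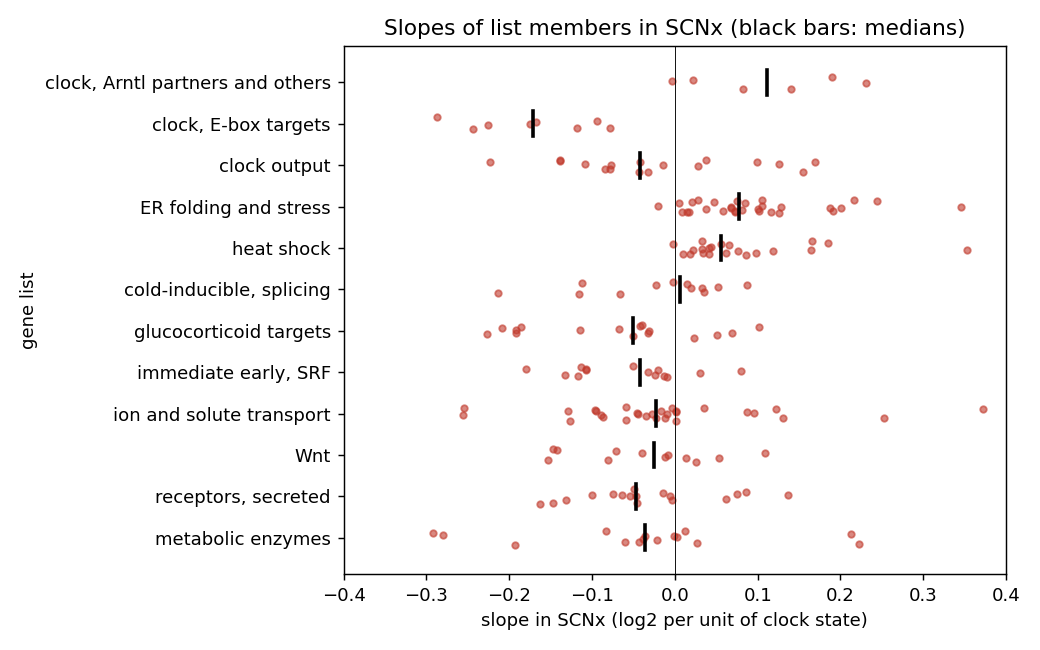
Slopes on the clock state in SCNx (log2 CPM per unit of state) for the tested members of 12 gene lists, 1 point per gene, with black bars at the medians. The E-box targets lie entirely below 0 (median -0.17), the genes of the ER list lie above 0 apart from *Ddit3* (median 0.08), and 1 glucocorticoid target at -1.63 (*Hsd11b1*) is outside the axis.

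The remaining lists held 0 members that passed adjustment, and the counts below are those at an unadjusted p under 0.05, which 5.45% of all genes had. Those of transport, Wnt signalling, receptors and metabolic enzymes hold genes that the study picked as rhythmic in these Ctrl mice. Of 29 transport genes, 3 were higher and 4 lower. *Magt1*, a magnesium transporter and subunit of the oligosaccharyltransferase, had a slope of 0.10 (unadjusted p = 0.00109) and *Kcnj8*, a potassium channel subunit, one of -0.26 (unadjusted p = 0.00251). *Slc16a6*, a monocarboxylate transporter family member, had a slope of 0.12 in both groups, which was called in Ctrl (adjusted p = 0.000274) and not in SCNx (adjusted p = 0.902). Of 15 metabolic genes, 1 was higher and 3 lower, among them *Lpl*, lipoprotein lipase, with a slope of 0.22, and *Neu2*, a sialidase, with one of -0.29. *Neu2* was at 5.17 CPM in CT8 and at most at 2.83 CPM elsewhere, and its r of -0.75 was -0.40 without CT8. Of 17 receptor and secreted factor genes, 2 were higher and 3 lower, with *Il1r1*, the interleukin 1 receptor, at 0.14 and *Il33* at -0.15. In the Wnt list of 12 genes, 1 was higher and 2 lower, with the secreted Wnt inhibitor *Sfrp5* at -0.15 (r -0.69, and -0.25 without CT8).

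Lists of systemic cues had more slopes below than above 0, as did all genes tested, with 7756 of 14209 below it. Those below 0 were 13 of 17 glucocorticoid targets, 12 of 14 immediate early and SRF genes and 10 of 13 interferon genes. Of 17 glucocorticoid targets, 2 were lower at an unadjusted p under 0.05, *Mt1* above and *Sgk1*, a kinase of ion transport, whose slope was -0.11 and whose r of -0.62 was -0.20 without CT8. Of 12 cold-inducible and splicing genes, 1 was higher and 1 lower, the latter *Cirbp* with a slope of -0.21 (unadjusted p = 0.0313). *Ier3* was the only 1 of 14 immediate early and SRF genes at that threshold (slope -0.18, r -0.72, and -0.41 without CT8). Of 11 insulin and feeding genes it was 0, of 13 histone genes 1 and of 13 interferon genes 1, each of the latter lower.

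No gene differed in slope between SCNx and Ctrl at an adjusted p under 0.05 in edgeR (0% of 13697), where 214 (1.56%) had an unadjusted p under 0.05, 59 with the higher (0.431%) and 155 with the lower slope (1.13%) in SCNx. DESeq2 called 14, the first of them liver genes such as *Plg* and *Apoa2*. The smallest adjusted p was 0.0824, for *Dct* (ENSMUSG00000022129), an enzyme of melanin synthesis, and *Hpse* (ENSMUSG00000035273), heparanase. They are the 2 genes that were called in Ctrl and went the opposite way in SCNx at an unadjusted p under 0.05. *Dct* was at 52.6 CPM in SCNx CT8 and at 3.41 to 6.10 CPM in the other 11 SCNx mice. In Ctrl it was at 81.5 CPM in CT0, 98.0 CPM in CT44 and no more than 6.20 CPM elsewhere. *Hpse* was at 12.3 CPM in SCNx CT8, at 18.6 and 19.2 CPM in Ctrl CT0 and CT44, and at most at 1.68 CPM in the others. The high values thus stood in 3 mice, 1 at the lowest state of SCNx and 2 at states above 3 in Ctrl. Without SCNx CT8, r with the state was -0.10 for *Dct* and -0.05 for *Hpse*. *Tyr*, *Mlana* and *Slc45a2*, further pigment cell genes picked after their values were seen, were at 4.97, 3.07 and 3.64 CPM in SCNx CT8 and at no more than 0.23 CPM in the other SCNx mice. Among the next genes by p were *Gpnmb*, *Met* and *Slc27a3*, with differences of -0.54, -0.85 and -0.13 per unit of state (adjusted p = 0.999 for each). Whether pigment cells in the dissected tissue play a part in these values was not tested. *Gpnmb* was at 10.4 CPM in SCNx CT8, and *Met* at 5.35 CPM there and at 6.08 CPM in SCNx CT0. Without SCNx CT8, Ctrl CT0 and Ctrl CT44, 0 genes had a difference at an adjusted p under 0.05 (390 at an unadjusted p under 0.05).

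**Figure D5:**
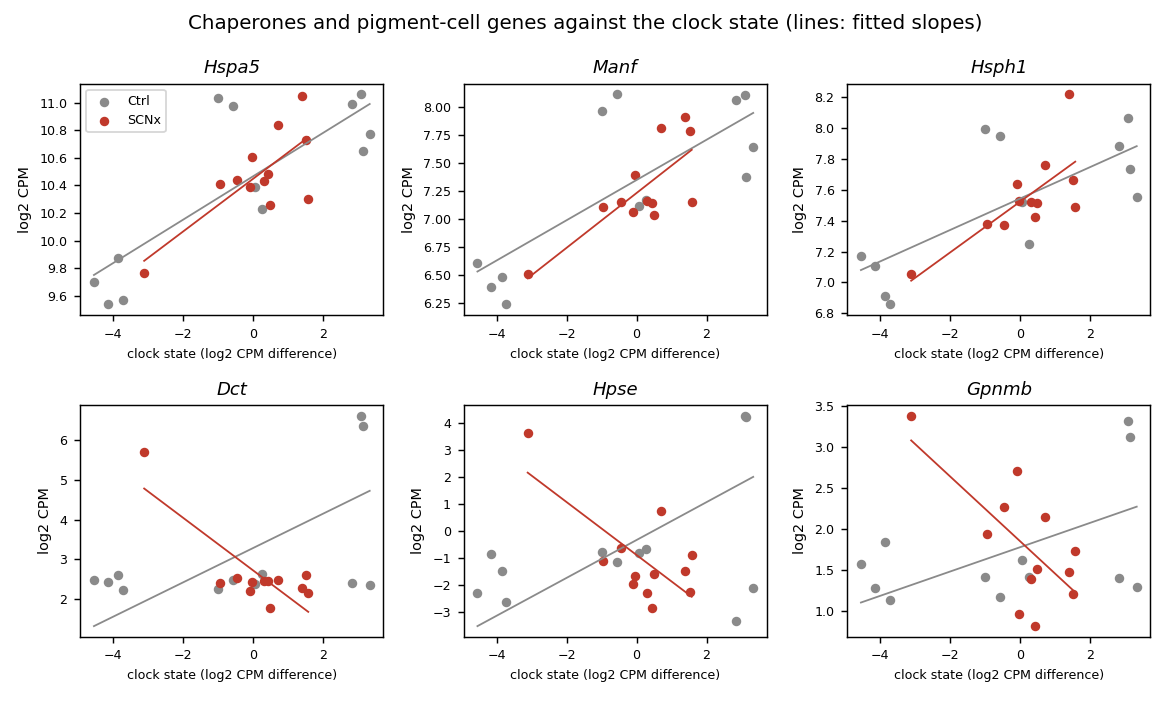
Log2 CPM of 3 chaperone genes (upper row) and of 3 genes with opposite slopes (lower row) against the clock state in SCNx (red) and Ctrl (grey), 1 point per mouse, with the fitted slopes. *Dct*, *Hpse* and *Gpnmb* stand high in SCNx CT8 at a state of -3.12 and in Ctrl CT0 and CT44 above 3, whereas *Hspa5*, *Manf* and *Hsph1* are lowest in SCNx at CT8.

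Other measures of the SCNx libraries were compared with the state as well, 14 in all. Depth had the strongest relation, with r = -0.79 (permutation p = 0.0111, 0.155 after adjustment over the 14) and rho = -0.53. CT8 had the most counts, and without CT8 and CT4 r was -0.35. The hepatocyte sum had r = -0.29 (adjusted permutation p = 0.867), yet 8 of 10 of its genes had an unadjusted p under 0.05 with slopes down to -4.79. The sum was 1.78 to 11804 CPM in the lower 6 and 1.51 to 8.56 CPM in the upper 6. The neuron and cerebellum sum had r = 0.18, with 9.10 to 64.6 CPM in the lower 6 and 8.34 to 310 CPM in the upper 6, and 0 of its 5 tested genes had an unadjusted p under 0.05. Of its 9 markers, 4 (*Gabra6*, *Pcp2*, *Neurod1* and *Slc17a7*) were below the minimum for the test. Without CT0 and CT32 the calls rose from 1 of 14209 genes tested to 16 of 13551, 5 higher and 11 lower. In that fit 8.58% of all genes had an unadjusted p under 0.05, against 5.45%. Among the 16 were *Tef*, *Hlf*, *Nr1d2*, *Bhlhe41*, *Npas2*, *Tspan4* and *Leo1*. The others were *Dct*, *Sspn*, *Mt1*, *Rapgef5*, *Ass1*, *Cys1*, *Sdc3*, *Ybx3* and a predicted gene model. *Dct* was high in SCNx CT8 alone among the SCNx mice. With both sums as covariates there were 10 calls, again with *Dct* among them. Without CT8 as well as CT0 and CT32 there were 2, *Mpo* and *Npas2*. Beyond these fits, the part of liver and neuron RNA in the slopes was not tested.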

How the data were processed

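RNA was sequenced from the choroid plexus of the 4th ventricle of 12 Ctrl and 12 SCNx mice. The deposited values are estimated counts per gene, which the authors made with Salmon 1.9.0 in a workflow whose processing notes also list STAR, cutadapt 3.4, SAMtools 1.16.1 and StringTie 2.2.1. Of the deposited values, 13.7% were not whole, and all were rounded. Total counts were 38751201 to 49527655 per library, no 2 libraries held identical counts, and 0 columns of per-sample values were left unmapped. The 2 knockout libraries were not used.

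Log2 CPM used TMM library sizes and a prior count of 1, and CPM values in the text are 2 to the power of these. A gene entered a fit where its CPM averaged 1 or more over that fit's libraries, without the 5 genes that define the state. Slopes on the continuous state were tested with edgeR 4.0.16 (glmQLFit and glmQLFTest, R 4.3.3) separately in SCNx and Ctrl, and their difference in 1 model of both groups, each with Benjamini-Hochberg adjustment over all genes tested. A 95% interval belongs to each difference. Correlations used 100000 permutations (scipy 1.17.1). The slope test was checked on simulated data with known slopes.

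The members and the gene lists were chosen with earlier results of these data known. The genes named were those of the 2 clock lists, up to 12 in each direction that passed the test, up to 4 per other list by smallest p, the first 8 by p of the difference in slope, and the 3 highest and lowest correlations. Predicted gene models were passed over. Alternatives were DESeq2 1.42.0, limma 3.58.1, other scalings, filters and definitions of the state, circadian time or tissue markers as covariates, and omitted libraries. The fit of SCNx slopes over both groups, the recounts of the Ctrl genes and lists, and the omission of CT0, CT8 and CT32, of CT4 and CT8, and of the 3 libraries with the most *Dct* were added after the data were seen. GC content, gene length and strand were not examined. Promoters came from RefSeq on GRCm38.p6, which differs from the authors' build, so their coordinates hold for that build only.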

Additional observations from a re-analysis of the deposited data

How the results depend on the processing

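The number of genes following the state in SCNx (1 in the reported fit) was 3 at a minimum mean CPM of 5, 3 with 24 h terms, 16 without CT0 and CT32, 10 with liver and neuron marker sums as covariates and 2 without CT0, CT8 and CT32. It was 0 with the state from other clock genes, in 1 fit over both groups, without CT4 and CT8, and by Pearson or Spearman permutation, where 700 and 806 genes had an unadjusted p under 0.05. DESeq2 called 305, of which 210 were highest in SCNx CT0, the library with liver RNA. Leaving out 1 library at a time gave 0 (CT8) to 6 (CT32), and 2 without CT16 or CT20. *Tef* kept its sign in every fit, and its adjusted p was 0.105 without CT8, 0.274 in 1 fit over both groups, 0.0582 without CT0, CT8 and CT32, 0.0622 without CT4 and CT8, 0.142 by Pearson and 0.696 by Spearman permutation.

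In Ctrl the count (851) was 433 without a filter on low counts, 1708 with DESeq2, 0 with 24 h terms, which nearly repeat the state there, 352 with the state from other clock genes and 1479 without CT4 and CT16. The difference of slopes (0) gave 3 genes without a filter (*Tyr*, *Slc45a2* and *Mlana*) and 14 with DESeq2. Genes called in Ctrl with the same sign and an unadjusted p under 0.05 in SCNx (198) were 317 without CT0 and CT32, 84 without CT4 and CT8, and 89 (CT8) to 306 (CT32) with 1 library left out. The share of all genes moved too, from 4.90% in the reported fit to 8.10% without CT0 and CT32 and 4.00% without CT4 and CT8. Genes of the ER list at that threshold (16) were 0 with 24 h terms, 4 without CT4 and CT8 and 7 to 20 with 1 library left out. Heat shock genes (4) were 7 with DESeq2, 2 with 24 h terms, 9 with the state from other clock genes, 7 without CT0 and CT32, 2 without CT4 and CT8 and 3 to 7 with 1 library left out. The genes not overlapping between the 6 highest and 6 lowest libraries stayed between 25 and 35. The cause of these shifts was not tested.

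Among named genes, 12 alternatives turned a slope around. *Cry1* was -0.014884 with 24 h terms, *Dct* 0.0089022 without CT0, CT8 and CT32 and *Sgk1* 0.032345 without CT4 and CT8. *Rora*, near 0 throughout, was 0.00076961 with DESeq2 size factors, 0.00079719 in DESeq2, 0.054458 with 24 h terms, 0.00092766 with the state from *Arntl* alone, 0.033338 without CT4 and CT8, and -0.028171 to 0.012505 with 1 library left out. Of the other alternatives for named genes, 1338 kept the sign and the call, 55 passed the threshold where the reported fit did not and 6 (all *Tef*) no longer passed it. The 24 h terms and the state share much of their variance, 1 mouse stands for each time, and SCNx CT8 lies far from the other mice, which together limit what 12 libraries can separate. No paired analysis was possible because the replicate numbers follow the order of the time points, and no label pairs a Ctrl with an SCNx mouse.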
